A study of Mus musculus with 6 samples.

Results

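The type I interferon (IFN) signalling loop comprised 9 genes, which were the receptor chains *Ifnar1* and *Ifnar2*, the kinase *Tyk2*, the transcription factors *Stat2*, *Irf9* and *Irf7*, the brakes *Socs1* and *Usp18*, and the ubiquitin-like product *Isg15*. Their rows were found by Entrez ID, and all 9 listed genes were among the 13426 genes of the expression table. The values came from RNA-seq of early LPre-B cells, the first large pre-B cells of the mouse bone marrow, with 3 libraries of control (Ctrl) mice and 3 libraries labelled *Upf1*-cKO. The helicase UPF1 drives nonsense-mediated decay (NMD) of mRNA, and the comparison asks which transcripts differ at this stage in its absence. Floxed *Upf1* alleles on both chromosomes (Upf1 Flox/Flox) were common to both groups. The Ctrl mice were Mb1 +/+ and had no Cre, whereas the cKO mice were Mb1 Cre/+ and expressed Cre from 1 allele of *Cd79a* (Mb1), a B lineage gene, so cells of other lineages were not targeted. Per the study's methods, the mice were adult and age-matched on a C57BL/6 background and both sexes were used, while the sex behind each library was not given in the sources used here. The sorted cells lacked the lineage markers CD3e, CD11b, CD11c, F4/80 and TER-119, had B220 and CD43 but neither surface IgM nor CD2, and were large by forward scatter.

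Type I IFNs are a family of cytokines that bind a receptor made of IFNAR1 and IFNAR2, which are attached to the kinases TYK2 and JAK1. The kinases phosphorylate STAT proteins, among them STAT2, which with IRF9 forms part of the complex ISGF3 and binds the IFN-stimulated response element (ISRE) of IFN-stimulated genes. *Stat2*, *Irf9*, *Irf7*, *Socs1*, *Usp18* and *Isg15* are IFN-stimulated themselves, so the pathway renews its own factors, feeds IFN production through IRF7 and is held back by SOCS1 at the kinases and by USP18 at IFNAR2.

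The windows upstream of the annotated starts are shown for the members that held the core of the ISRE, since that element is where ISGF3 acts. Sequences and starts were from RefSeq on GRCm38.p6, and windows of 300 bases, 250 before and 50 after the start, were searched on both strands for the ISRE core GAAANNGAAA and for TTCNNNGAA, the core of the GAS element bound by STAT dimers, which reads the same on both strands. The ISRE core was in 3 of the 8 members with a window, *Stat2*, *Socs1* and *Isg15*, and in 3.99% of all 27025 genes with a window. The GAS core was in the windows of *Ifnar1* and *Ifnar2* and in 9.55% of all genes with a window. *Usp18* was without an entry. The 250 bases before the start are printed 5′ to 3′ on the strand of the gene, with matches to the ISRE core in capitals.
Isg15, chr4:156200819-156201068, minus strand: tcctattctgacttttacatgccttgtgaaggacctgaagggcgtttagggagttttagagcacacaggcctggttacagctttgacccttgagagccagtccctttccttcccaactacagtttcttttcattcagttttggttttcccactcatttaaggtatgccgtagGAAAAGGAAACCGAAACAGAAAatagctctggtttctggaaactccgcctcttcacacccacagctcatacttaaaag
Socs1, chr16:10785537-10785786, minus strand: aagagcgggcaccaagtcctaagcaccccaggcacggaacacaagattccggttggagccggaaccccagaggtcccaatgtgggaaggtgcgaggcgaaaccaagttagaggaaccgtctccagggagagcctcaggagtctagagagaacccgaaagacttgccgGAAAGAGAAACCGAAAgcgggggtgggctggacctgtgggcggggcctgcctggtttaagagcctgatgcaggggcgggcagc
Stat2, chr10:128270248-128270497, plus strand: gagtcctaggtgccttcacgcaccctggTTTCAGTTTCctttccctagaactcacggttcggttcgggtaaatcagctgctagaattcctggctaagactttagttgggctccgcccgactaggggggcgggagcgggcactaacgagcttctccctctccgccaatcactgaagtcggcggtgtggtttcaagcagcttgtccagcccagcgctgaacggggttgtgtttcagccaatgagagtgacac
The *Isg15* window held 3 matches that overlap one another in a single run and begin 78, 72 and 66 bases before the start. In *Socs1* a pair of overlapping matches began 83 and 77 bases before the start. The single match of *Stat2* was on the opposite strand, 222 bases before the start at its far end. Among other pathway genes with a window, the core was found for *Stat4*, *Irf2* and *Myd88*. These matches are letters in a window and were not tested as binding sites.

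The gene targeted in the mice was examined first. *Upf1* (Entrez ID 19704) had 260, 203.3 and 258.6 normalised reads in Ctrl libraries 1, 2 and 3 and 307.8, 283 and 299.7 in libraries 1, 2 and 3 labelled cKO. A normalised read is a deposited value, close to reads per 1000000 of an effective library size. The log2 fold change, on log2(normalised reads + 1) as are all that follow, was 0.31 (SE 0.089, limma adjusted p = 0.00696), and the call was lost without the intensity trend and robust estimation (adjusted p = 0.0685) and under median centring (adjusted p = 0.0645). The row goes against the label of a deletion, but it pools all exons of the gene, so the removal of the floxed ones cannot be read from it. The libraries are therefore called cKO-labelled below. *Cd79a*, of which 1 allele carries Cre in the cKO mice, was at 220.6 ± 11.4 normalised reads in Ctrl libraries and 73.3 ± 1.85 in cKO-labelled libraries (SD, n = 3 each), lower in each of the latter.

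Recovered reads numbered between 9732498 and 11006834 per library. Markers of B lineage cells were abundant, in keeping with the sort, as 10 of 10 had a row and summed to between 2590 and 2857 normalised reads in Ctrl libraries and between 2532 and 2680 in cKO-labelled libraries, although 3 were called higher and 3 lower. For the calls in this and the following lists, the shares of all genes were 27.7% higher and 25% lower. Neutrophil markers moved with the groups. Their 8 of 8 rows summed to 119.4, 17.8 and 13.6 in Ctrl libraries 1, 2 and 3 and to 458.2, 354.1 and 326.2 in cKO-labelled libraries 1, 2 and 3, and 5 of the 8 were called higher. Markers of plasmacytoid dendritic cells, which are rich in IRF7, summed to between 2.085 and 3.931 in Ctrl libraries and between 6.04 and 6.83 in cKO-labelled libraries over 4 of 5 listed genes, of which 2 were called higher, while Klk1 had no row. Monocyte and macrophage markers summed to between 49.3 and 86.6 against between 75.3 and 101.6 over 5 of 6 genes, with 1 called higher and no row for Cd14. T and NK cell markers were represented by 2 of 6 genes, with no row for Cd3e, Cd3d, Cd3g or Ncr1, and summed to between 1.17 and 1.59 in Ctrl libraries and between 3.79 and 5.27 in cKO-labelled libraries, with 1 of the 2 called higher. Erythroid markers (3 of 5 genes, no row for the globins) ranged from 6.82 to 11.8 and from 8.39 to 9.42. In bulk RNA a change in the number of cells of a type cannot be told apart from a change in RNA per cell, and the part of other cells in the results below was not tested.

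Of the 9 genes of the loop, 8 passed the test as higher in cKO-labelled libraries at a limma adjusted p below 0.05, and 1, *Socs1*, did not pass. None was lower (0 of 9), since all 9 estimates were above 0. On recovered reads edgeR and DESeq2 also called 0 lower, against 3343 and 3281 of all genes. Among all genes, 27.7% were called higher and 25% lower. The log2 fold changes had a median of 0.79 over the 9 genes and 0.01 over all 13426 genes. In each of the 9 genes, every cKO-labelled library was above every Ctrl library, as in 30.9% of all genes, while 28% of all genes had every cKO-labelled library below every Ctrl library. By log2 fold change, *Isg15* was at rank 314 of all genes, *Irf7* at 425, *Stat2* at 591 and *Irf9* at 990. The brake *Usp18* was at rank 1570 and the receptor chains at 1952 and 2523, whereas *Socs1* at 3708 and *Tyk2* at 4539 came last. These last members changed places under quantile normalization (0.19 for *Socs1* and 0.24 for *Tyk2* on the log2 scale) and without cKO-labelled library 1 (0.19 and 0.21). On recovered reads *Socs1* was instead slightly above *Ifnar2*, at 0.58 and 0.57 with edgeR and at 0.57 and 0.56 with DESeq2. Across all genes the split of calls depended on scaling, with 3725 higher and 3351 lower as reported, 5172 and 1936 with libraries scaled to total reads, and 2992 and 4355 with median centring. In those scalings the median of all genes was 0.19 and -0.10 on the log2 scale. The members called were 8 higher and 7 higher, respectively, and 0 lower in both.

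**Figure D1:**
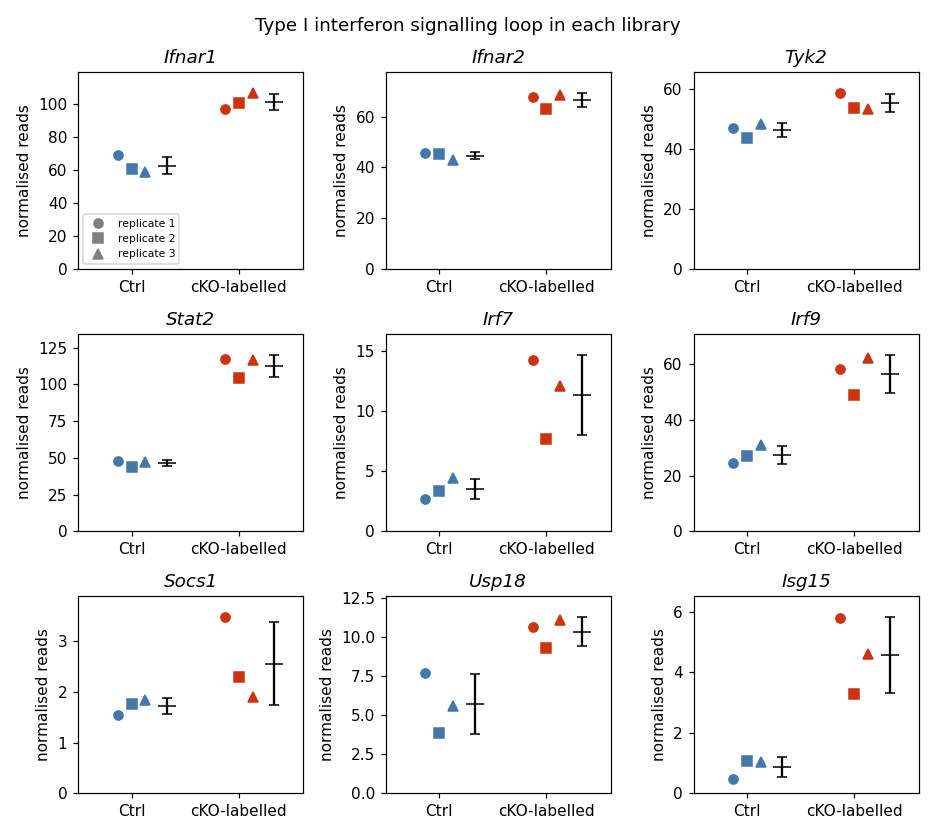
Normalised reads (vertical axes, each from 0) of the 9 genes in the 3 Ctrl libraries (blue) and the 3 cKO-labelled libraries (red), with replicates as circles, squares and triangles and the mean ± SD in black. The groups are apart in every panel, and the gap is narrowest for *Socs1*, from 1.84 in Ctrl library 3 to 1.90 in cKO-labelled library 3.

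The receptor chains were both higher. *Ifnar1*, the chain bound to TYK2, had 68.8, 60.6 and 58.5 normalised reads in Ctrl libraries 1 to 3 and 96.8, 100.5 and 106.5 in cKO-labelled libraries 1 to 3. The lowest cKO-labelled library thus exceeded the highest Ctrl library by more than the spread within either group. The means were 62.6 ± 5.42 and 101.2 ± 4.93 (SD, n = 3 each), a ratio of 1.62, with a log2 fold change of 0.69 (SE 0.088, 95% interval 0.50 to 0.87, limma adjusted p = 3.14e-06). *Ifnar2*, the chain with the long signalling tail, had 45.7, 45.1 and 43.0 normalised reads in the Ctrl libraries and 67.6, 63.2 and 68.5 in the cKO-labelled ones. Its groups were tight and far apart, with means of 44.6 ± 1.41 and 66.4 ± 2.85. For *Ifnar2* the log2 fold change was 0.56 (SE 0.089, 95% interval 0.38 to 0.75, limma adjusted p = 3.29e-05). Reads of an overlapping gene, Gm21970, could be counted with *Ifnar2*, as 9.46% of the exon bases of *Ifnar2* are shared with it. GENCODE release M21 listed NMD as the biotype of 3 of the 8 transcripts of *Ifnar1* and of 1 of the 13 of *Irf7*, and of none of the other members, and a count per gene does not resolve them. Among protein-coding genes of the table, 29.5% had such a transcript.

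*Ifnar1* and *Ifnar2* lie on the plus strand of chromosome 16 in a cluster of class II cytokine receptor genes. In GENCODE coordinates on GRCm38 the order was *Ifnar2* (chr16:91372783-91405589), *Il10rb* (chr16:91406164-91425834), *Ifnar1* (chr16:91485238-91507441) and *Ifngr2* (chr16:91547072-91565623). *Ifngr2*, a chain of the type II IFN receptor, had a larger change than either loop member, from 21.7 ± 4.75 to 55.6 ± 4.30 normalised reads (log2 fold change 1.34, SE 0.13, limma adjusted p = 1.14e-07). *Il10rb*, a chain shared by the receptors of IL-10 and of type III IFN and named after its values were seen, went from 14.2 ± 0.415 to 18.2 ± 2.14 (log2 fold change 0.33, limma adjusted p = 0.0432), its call was lost under 9 of 16 alternatives, and 14.9% of its exon bases are shared with Gm21970.

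*Tyk2*, the Janus kinase bound to IFNAR1, had 47.0, 43.7 and 48.2 normalised reads in the Ctrl libraries and 58.7, 53.8 and 53.5 in the cKO-labelled libraries. The groups did not overlap, but the gap between them was about as wide as the range within a group. Means were 46.3 ± 2.34 and 55.3 ± 2.92, with a log2 fold change of 0.25 (SE 0.092, 95% interval 0.058 to 0.44, limma adjusted p = 0.0281). The call was lost in 7 of 16 alternatives, among them DESeq2 (adjusted p = 0.0598), median centring (log2 fold change 0.14, adjusted p = 0.194) and the removal of Ctrl library 2 or of any single cKO-labelled library (adjusted p from 0.0535 to 0.131). Of the exon bases of *Tyk2*, 8.07% are shared with the overlapping gene 1700084C06Rik. *Jak1*, the kinase bound to IFNAR2, went the other way. It fell from 244.6 ± 13.9 to 186.6 ± 7.94 normalised reads (log2 fold change -0.39, SE 0.075, limma adjusted p = 0.000271), although with libraries scaled to total reads the log2 fold change was -0.19 and the adjusted p 0.0507.

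The factors of ISGF3 were higher. *Stat2*, the STAT that carries the activation domain of the complex, had 48.2, 43.9 and 46.9 normalised reads in Ctrl libraries 1 to 3 and 117.3, 104.4 and 116.5 in cKO-labelled libraries 1 to 3. Each cKO-labelled library was far above each Ctrl library, and the groups had means of 46.3 ± 2.20 and 112.7 ± 7.27, a ratio of 2.43. The log2 fold change of *Stat2* was 1.26 (SE 0.087, 95% interval 1.082 to 1.45, limma adjusted p = 1.22e-09), and it had the lowest adjusted p of the loop. *Irf9*, which gives ISGF3 its DNA sequence preference, had 24.6, 26.9 and 31.0 in the Ctrl libraries and 58.4, 48.8 and 62.1 in the cKO-labelled libraries. Replicates of *Irf9* varied more than those of *Stat2*, yet the groups were well apart. Its means were 27.5 ± 3.26 and 56.4 ± 6.85, a ratio of 2.05, with a log2 fold change of 1.01 (SE 0.11, 95% interval 0.77 to 1.25, limma adjusted p = 6.62e-07). Of the exon bases of *Irf9*, 2.28% are shared with an overlapping gene, whereas *Stat2* shares none.

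*Irf7*, the factor that switches on IFN-alpha genes after its phosphorylation, was low in both groups. It had 2.71, 3.38 and 4.42 normalised reads in Ctrl libraries 1 to 3, from 25, 33 and 44 reads, and 14.2, 7.71 and 12.1 in cKO-labelled libraries 1 to 3, from 145, 85 and 143 reads. The cKO-labelled libraries were spread widely, with library 2 at the bottom, but remained above the Ctrl libraries. The means of *Irf7* were 3.50 ± 0.861 and 11.3 ± 3.31, a ratio of 3.24, and the log2 fold change was 1.43 (SE 0.22, 95% interval 0.98 to 1.89, limma adjusted p = 2e-05). An overlap with *Phrf1* covers 1.19% of the exon bases of *Irf7*. A pseudocount of 1 understates the change of genes as low as *Irf7*, *Isg15* and *Socs1*.

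The brakes of the loop were low. *Socs1*, which binds and blocks the Janus kinases, had 1.54, 1.77 and 1.84 normalised reads in the Ctrl libraries, from 14, 17 and 18 reads, and 3.46, 2.30 and 1.90 in the cKO-labelled libraries, from 35, 25 and 22 reads. The groups nearly touched, and most of the difference was in cKO-labelled library 1. The ratio of the means of *Socs1* was 1.49. Its log2 fold change was 0.37 (SE 0.22, 95% interval -0.093 to 0.82, limma adjusted p = 0.17, unadjusted p = 0.111), and none of 16 alternatives called it (adjusted p from 0.0618 to 0.534). *Usp18*, the ISG15 protease that also displaces JAK1 from IFNAR2, had 7.70, 3.89 and 5.61 in the Ctrl libraries and 10.7, 9.33 and 11.1 in the cKO-labelled libraries. Here the Ctrl libraries were the more scattered ones, with library 1 nearest to the cKO-labelled libraries. The means of *Usp18* were 5.73 ± 1.91 and 10.4 ± 0.919, and the log2 fold change was 0.79 (SE 0.20, 95% interval 0.38 to 1.21, limma adjusted p = 0.00255). The overlapping gene Gm44148 shares 4.44% of the exon bases of *Usp18*.

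*Isg15*, whose product is joined to other proteins as ubiquitin is, rose most by fold. It had 0.478, 1.061 and 1.04 normalised reads in Ctrl libraries 1 to 3, from 4, 10 and 10 reads, and 5.81, 3.29 and 4.59 in cKO-labelled libraries 1 to 3, from 59, 36 and 54 reads. All cKO-labelled libraries were clear of all Ctrl libraries, though the level in the Ctrl libraries rested on 24 reads in all. The ratio of means was 5.30, from 0.860 ± 0.331 to 4.56 ± 1.26. The log2 fold change of *Isg15* was 1.57 (SE 0.23, 95% interval 1.09 to 2.06, limma adjusted p = 1.5e-05), and it reached 2.46 at most among 16 alternatives, where the constant added to low values was smaller or absent.

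Across the alternatives every estimate of a member stayed above 0, as the plot of estimates by setting shows. Those of *Stat2* ranged from 1.16 to 1.46, of *Irf7* from 1.26 to 1.70, of *Irf9* from 0.90 to 1.21 and of *Usp18* from 0.58 to 0.9963 on the log2 scale.

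**Figure D2:**
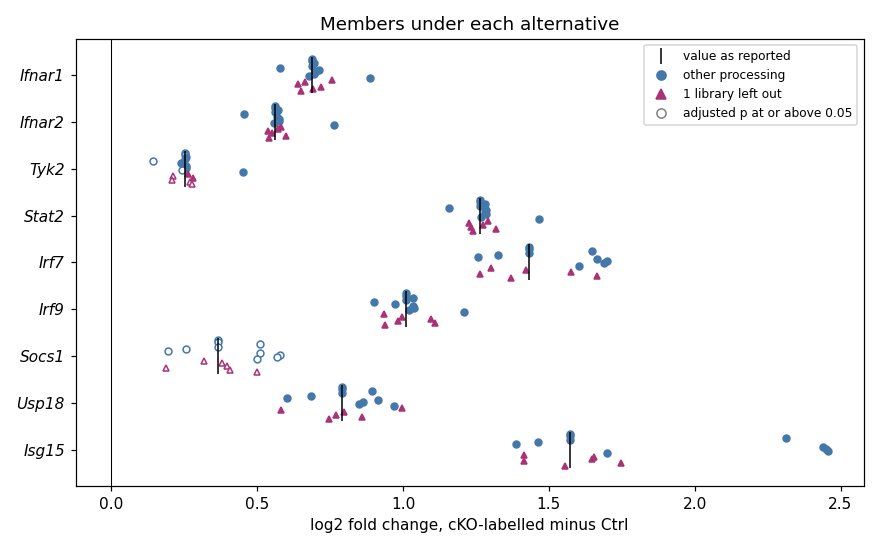
The log2 fold change of each gene of the loop (horizontal axis) as reported (black bar), under other processing (circles) and with 1 library left out (triangles), open where the adjusted p was at or above 0.05. All estimates lie above 0, *Socs1* is open throughout, and *Tyk2* is open in 7 of 16 alternatives, while *Isg15* spans 1.39 to 2.46.

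The order of libraries within a group differed between genes. Within the Ctrl group, library 1 had the highest sum of neutrophil markers and the lowest values of *Irf7*, *Irf9*, *Socs1* and *Isg15*, but the highest of *Ifnar1*, *Ifnar2*, *Stat2* and *Usp18*. Among the cKO-labelled libraries, library 1, again first by neutrophil markers, was the highest in 5 of the 9 genes and library 3 in 4, while library 2 was the lowest in 6. Of all genes called higher, 40.8% had their lowest cKO-labelled value in library 2.

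Levels were compared between the genes only per length, as normalised reads per kb of annotated exon. In the Ctrl libraries the receptor chains led, with *Ifnar2* at 13.4 ± 0.422 per kb and *Ifnar1* at 10.5 ± 0.913, followed by *Stat2* at 7.82 ± 0.371, *Tyk2* at 6.75 ± 0.340 and *Irf9* at 5.11 ± 0.605. *Usp18* at 2.06 ± 0.684, *Isg15* at 1.14 ± 0.438 and *Irf7* at 0.928 ± 0.228 followed, and *Socs1* was last at 0.590 ± 0.0534. The ranges of *Usp18* and *Isg15* overlapped, as did those of *Isg15* and *Irf7*, while the other neighbours in the order were apart. In the cKO-labelled libraries *Stat2* had moved up to 19.0 ± 1.23 per kb, between *Ifnar2* at 19.9 ± 0.857 and *Ifnar1* at 17.0 ± 0.830, and its range overlapped those of both. *Irf9* at 10.5 ± 1.27 was above *Tyk2* at 8.06 ± 0.426, and *Isg15* at 6.04 ± 1.66 was above *Usp18* at 3.72 ± 0.329 and *Irf7* at 3.002 ± 0.877, the ranges of the latter pair overlapping. *Socs1* stayed last, at 0.878 ± 0.280. The order thus changed at *Stat2*, *Irf9* and *Isg15*, as the plot of levels per exon length shows.

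**Figure D3:**
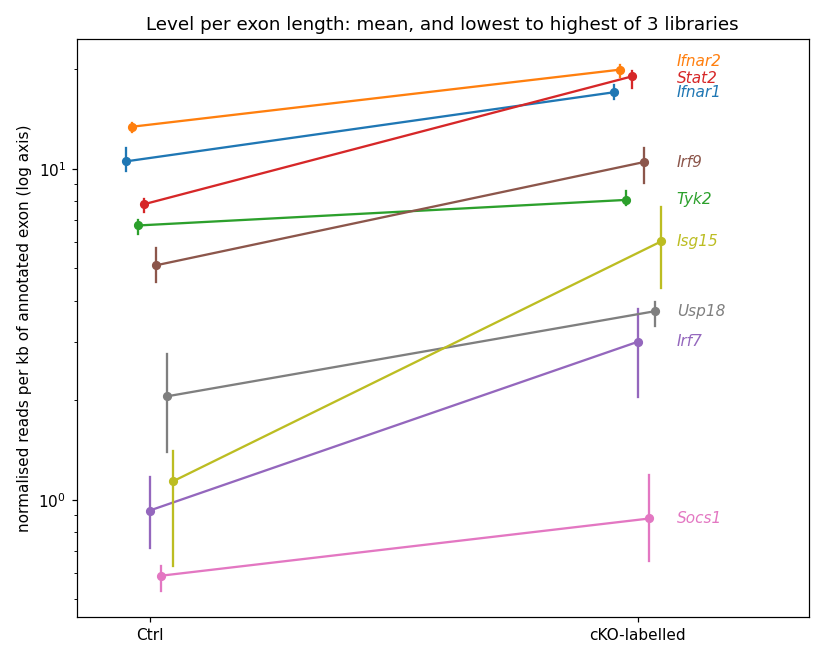
Normalised reads per kb of annotated exon (vertical log axis) of the 9 genes in Ctrl and cKO-labelled libraries, with points for the means of 3 libraries and vertical lines from the lowest to the highest library. The line of *Stat2* rises from 7.82 to 19.0 and that of *Isg15* from 1.14 to 6.04 per kb, whereas that of *Tyk2* goes from 6.75 to 8.06.

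Ratios between members within a library do not depend on how libraries were scaled. On the log2 scale, the ratio of *Ifnar2* to *Ifnar1* was -0.49 ± 0.090 in Ctrl and -0.61 ± 0.080 in cKO-labelled libraries, a difference of -0.12 (exact two-sided permutation p = 0.2). The ratio of *Irf9* to *Stat2* went from -0.76 ± 0.19 to -1.004 ± 0.094, a difference of -0.25 (exact permutation p = 0.2). For these pairs, the values of both groups overlapped. The ratio of *Irf7* to *Irf9* was -2.995 ± 0.19 in Ctrl and -2.35 ± 0.31 in cKO-labelled libraries, a difference of 0.64 (exact permutation p = 0.1), and every cKO-labelled library was above every Ctrl library. The ratio of *Usp18* to *Isg15* was 2.77 ± 1.11 and 1.22 ± 0.32, a difference of -1.55 (exact permutation p = 0.1), with no overlap between groups, and without Ctrl library 1 the difference was -0.93. With 3 libraries against 3, 0.1 is the smallest p that the permutations can give, and after Benjamini-Hochberg adjustment over the 4 ratios each permutation p was 0.2, so none of these differences passed the test.

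Genes with the nearest profiles over the 6 libraries were sought for *Irf7*, *Usp18* and *Isg15*, by the root mean square distance between log2 values centred on each gene's mean. For *Irf7* they were *Sdcbp2* at a distance of 0.101, *Il10ra*, a chain of the IL-10 receptor, at 0.11, and *Acacb*, an acetyl-CoA carboxylase, at 0.114. For *Isg15* they were *Crybg2* at 0.122, *Il10ra* at 0.129 and *Sdcbp2* at 0.135, and for *Usp18* *Dnah8* at 0.0697, *Vat1* at 0.0917 and *Tmem67* at 0.0999. *Sdcbp2* was near the floor, at 0.184 ± 0.150 normalised reads in Ctrl and 2.22 ± 0.575 in cKO-labelled libraries. Among 13426 genes and over 6 libraries, near profiles can arise without shared regulation, which was not tested.

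The rest of the pathway was divided between rises and falls. None of the 21 IFN genes listed, of types I, II and III, had a row in the table. The reason was not tested, so the levels of these genes cannot be given. Of the 62 other pathway genes with a row, 24 were called higher, 17 lower and 21 neither, against 27.7% and 25% of all genes, with a median log2 fold change of 0.12. With libraries scaled to total reads the counts were 35 higher and 9 lower, beside 5172 and 1936 of all 13426 genes. With median centring they were 20 higher and 21 lower, beside 2992 and 4355 of all genes.

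**Figure D4:**
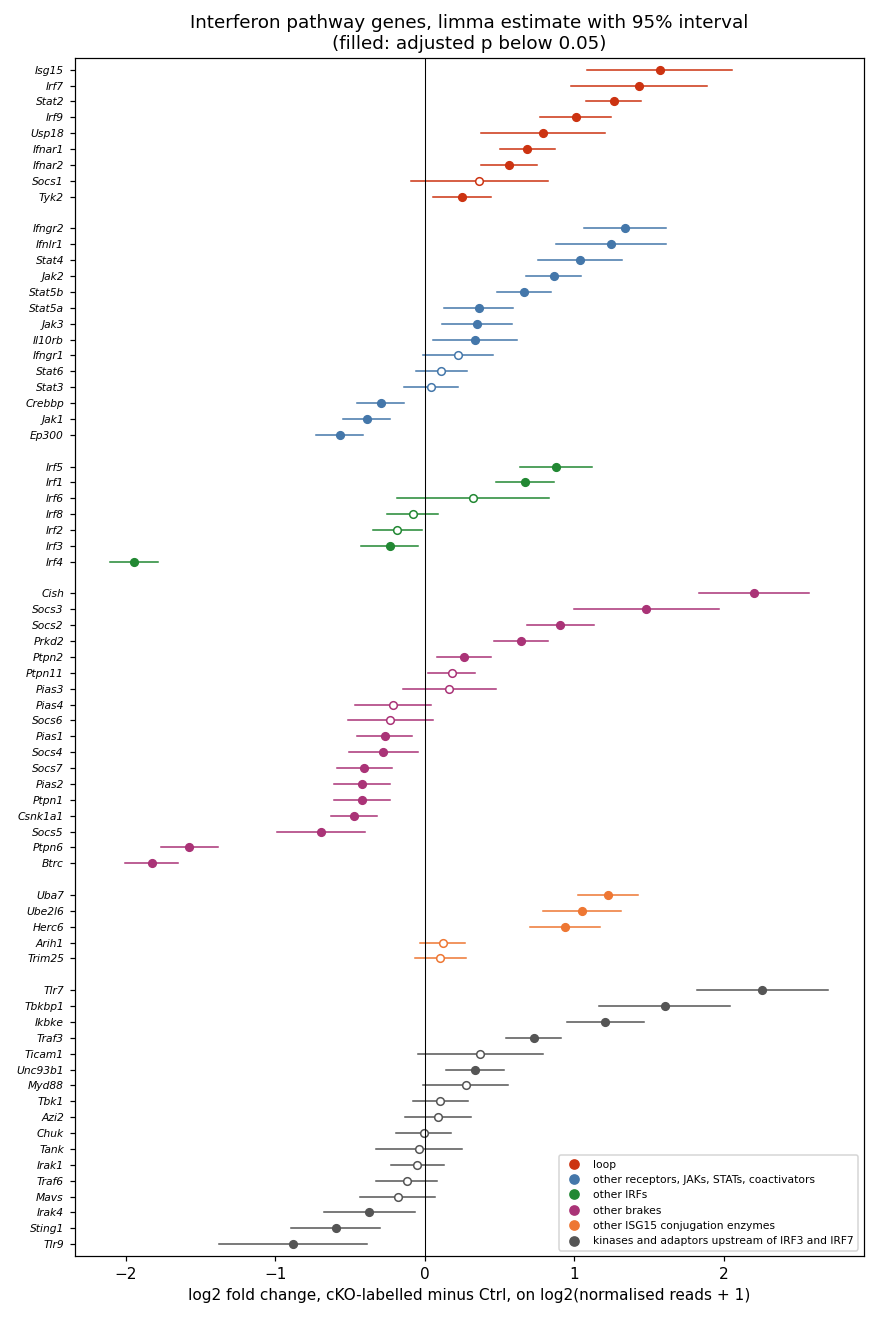
The log2 fold change between cKO-labelled and Ctrl libraries (horizontal axis, limma estimate with its 95% interval, on log2(normalised reads + 1)) of the 9 genes of the loop at the top and of other pathway genes with a row below, coloured by list and filled where the adjusted p was below 0.05. All 9 estimates of the loop lie right of 0, while the estimates of the other IRFs and brakes lie on both sides, from -1.94 for *Irf4* to 2.20 for *Cish*.

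Other receptor chains, kinases, STATs and coactivators all had a row. Of these 15 genes, 9 rose, 3 fell and 3 did not pass the test, beside 27.7% higher and 25% lower among all genes. The counts were 12 higher and 1 lower with libraries scaled to total reads, 6 and 3 with median centring, and 6 and 3 without Ctrl library 3. In the same order, these settings called 5172 and 1936, 2992 and 4355, and 3535 and 3169 of all 13426 genes. *Ifnlr1*, the specific chain of the type III IFN receptor, rose from 3.73 ± 0.355 to 10.2 ± 0.977 normalised reads (log2 fold change 1.25, limma adjusted p = 9.27e-06). *Stat4*, a STAT downstream of IL-12 and type I IFN, went from 9.70 ± 0.609 to 21.0 ± 1.31 (log2 fold change 1.04, limma adjusted p = 3.65e-06). *Jak2*, a kinase of the type II IFN receptor, went from 45.3 ± 2.07 to 83.2 ± 3.84 (log2 fold change 0.86, limma adjusted p = 1.71e-07). The genes called lower, besides *Jak1*, were the coactivators *Crebbp* and *Ep300*, and with libraries scaled to total reads the single call was that of *Ep300*.

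Of the 7 other IRFs, 2 rose, 2 fell and 3 did not pass the test, shares close to the 27.7% and 25% of all genes. Scaling to total reads gave 2 higher and 1 lower, beside 5172 and 1936 of all 13426 genes. Median centring gave 2 and 3, beside 2992 and 4355 of all genes. *Irf4*, a factor of B and plasma cells, fell from 466.2 ± 9.32 to 120.7 ± 9.18 normalised reads (log2 fold change -1.94, SE 0.076, limma adjusted p = 5.97e-13). *Irf5*, a mediator of Toll-like receptor signals, rose from 21.0 ± 2.71 to 39.2 ± 0.817 (log2 fold change 0.88, limma adjusted p = 4.02e-06). *Irf1*, an IFN-inducible factor, rose from 55.2 ± 3.02 to 88.7 ± 8.76 (log2 fold change 0.67, limma adjusted p = 6.91e-06). *Irf3*, the partner of IRF7 in the induction of IFN genes, went from 63.9 ± 3.99 to 54.2 ± 3.477 (log2 fold change -0.23, limma adjusted p = 0.0389), and its call was lost under 6 of 16 alternatives, with a log2 fold change of -0.033 when libraries were scaled to total reads.

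Of the 18 other brakes, 5 rose, 9 fell and 4 did not pass the test, beside 27.7% higher and 25% lower among all genes. Scaling to total reads gave 7 higher and 5 lower, with 5172 higher and 1936 lower of all 13426 genes. *Cish*, a SOCS family target of STAT5, rose from 4.21 ± 1.09 to 22.7 ± 2.03 normalised reads (log2 fold change 2.20, limma adjusted p = 7.09e-09). *Socs3*, which restrains STAT3 signals, went from 1.084 ± 0.512 to 4.78 ± 1.10 (log2 fold change 1.48, limma adjusted p = 2.98e-05). *Btrc*, a ubiquitin ligase subunit that marks IFNAR1 for degradation, fell from 175.9 ± 4.91 to 48.9 ± 3.83 (log2 fold change -1.83, limma adjusted p = 5.07e-12). *Ptpn6*, the phosphatase SHP-1, fell from 253.8 ± 32.8 to 84.1 ± 3.03 (log2 fold change -1.58, limma adjusted p = 1.14e-10).

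Enzymes that attach ISG15 to its targets were higher or did not pass the test. Of 5 genes, 3 rose and 2, *Trim25* and *Arih1*, did not pass the test (log2 fold changes 0.10 and 0.12), beside 27.7% of all genes called higher. With libraries scaled to total reads 5 of 5 were called higher, beside 5172 of all 13426 genes, and with quantile normalization 4 of 5, beside 3330 of all genes. *Uba7*, the activating enzyme of ISG15, rose from 43.6 ± 4.74 to 102.8 ± 6.27 normalised reads (log2 fold change 1.22, SE 0.095, limma adjusted p = 5.48e-09). *Ube2l6*, its conjugating enzyme, went from 14.6 ± 1.30 to 31.5 ± 2.88 (log2 fold change 1.05, limma adjusted p = 1.06e-06). *Herc6*, the main ISG15 ligase of the mouse, went from 25.7 ± 2.68 to 50.1 ± 5.44 (log2 fold change 0.94, limma adjusted p = 1.29e-06).

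The kinases, sensors and adaptors that act before IRF3 and IRF7 gave mixed results. Of 17 genes with a row out of 19 listed, 5 rose, 3 fell and 9 did not pass the test, shares near the 27.7% and 25% of all genes, while *Tlr3* and *Tlr8* had no row. With libraries scaled to total reads, 9 were higher and 2 lower, beside 5172 and 1936 of all 13426 genes. *Tlr7*, a sensor of single-stranded RNA, rose from 0.943 ± 0.346 to 8.23 ± 0.916 normalised reads (log2 fold change 2.26, limma adjusted p = 5.14e-08). *Tbkbp1*, an adaptor of TBK1, went from 0.866 ± 0.154 to 4.71 ± 0.850 (log2 fold change 1.61, limma adjusted p = 3.76e-06). *Ikbke*, a kinase of IRF3 and IRF7, went from 14.8 ± 1.81 to 35.5 ± 2.44 (log2 fold change 1.21, limma adjusted p = 1.78e-07). *Tlr9*, a sensor of DNA, fell from 8.15 ± 3.10 to 3.78 ± 0.640 (log2 fold change -0.88, limma adjusted p = 0.00412), with Ctrl library 3 at 4.72 close to cKO-labelled library 1 at 4.44.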

How the data were processed

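RNA of 3 Ctrl and 3 cKO-labelled early LPre-B libraries was sequenced from a single end after depletion of ribosomal RNA. Per the submitters' processing notes the tools were cutadapt 4.0, HISAT2, featureCounts 2.0.1 and limma 3.48.0, on mm10. Reads were aligned without strand, so overlapping genes are uncertain. For each gene the authors deposited a linear signal, which equalled (reads + 0.5) per 1000000 of an effective library size, and whole reads were recovered for 100% of values (tolerance 0.02 reads). RefSeq named 13008 of 13426 IDs, and 418 were unnamed.

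Group means of log2(value + 1) were compared with limma 3.58.1 in R 4.3.3 (trend and robust eBayes, group as the only term, Benjamini-Hochberg over 13426 genes). Adjusted p-values are limma's where no tool is given. The procedure was also run on simulated counts, with a fixed dispersion and far fewer changed genes than were called here. That run does not show how the procedure behaves at the spread of these libraries. Other settings tried were a pseudocount of 0.1, eBayes without trend, a replicate block, a mean log2 value of at least 1, median centring, quantile normalization, scaling to total reads, voom, edgeR 4.0.16 and DESeq2 1.42.0 on recovered reads, and leaving out each library. Within a group, no 2 libraries agreed within sampling noise (chi-square over its degrees of freedom, 4.39 to 22.02). The labels do not say that libraries came from separate mice, although the study calls its replicates biological.

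Genes named were the 9 members, *Upf1*, up to 4 called genes per pathway list by absolute log2 fold change, *Jak1*, and the 3 nearest profiles of *Irf7*, *Usp18* and *Isg15*. A further gene of the rule is not reported here. Others were named after their values were seen. The members and lists were chosen with earlier results of these data known. Gene models were from GENCODE M21. Counts cover counting error only.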

Additional observations from a re-analysis of the deposited data

How the results depend on the processing

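Over 16 alternatives, members of the loop called higher numbered 7 or 8 and members called lower 0. Of all genes tested, 2992 to 5172 were called higher and 1936 to 4355 lower. *Ifnar1*, *Ifnar2*, *Stat2*, *Irf7*, *Irf9*, *Usp18* and *Isg15* were called in all 16 alternatives. The log2 fold change of *Tyk2* ranged from 0.14 to 0.45 (adjusted p from 0.00083 to 0.194), the larger value with libraries scaled to total reads. That of *Isg15* was 1.39 to 2.46. Other pathway genes called lower were 17 as reported, 9 with libraries scaled to total reads, a scaling that moved the median of all genes to 0.19, 20 with quantile normalization and 21 with median centring. In the same order, 3351, 1936, 3751 and 4355 of all 13426 genes were called lower. *Upf1* had a log2 fold change of 0.31 without the intensity trend and robust estimation and 0.20 with median centring, no longer past the threshold in either, and ranged from 0.19 (without Ctrl library 2) to 0.51 (scaled to total reads). The difference in the log2 ratio of *Usp18* to *Isg15* ranged from -2.001 to -0.93 when 1 library was left out, and the other 3 ratios kept their direction throughout.

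Deviations of libraries of the same replicate number correlated at 0.082, -0.030 and -0.021 over genes. With 3 libraries per group, such correlations cannot show whether the libraries were paired by design. The column headers give adjacent numbers to Ctrl and cKO-labelled libraries of the same replicate number. What those header numbers stand for is not stated. With the replicate block, 8 members were called higher and 0 lower, and 23 other pathway genes higher and 17 lower, beside 3668 and 3321 of all genes. Not every library correlated best with its own number. *Isg15* and *Socs1* rested on 24 and 49 Ctrl reads, so counting error is part of the spread of both.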
